A study of Mus musculus with 20 samples.

Results

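The genes described here encode proteins of the cytosolic ribosome, the particle that translates nuclear-encoded messenger RNA. They were chosen by symbol from a list of 56 mouse genes named Rpl, Rplp (large, 60S subunit), Rps or Rpsa (small, 40S subunit), each represented by the probe set with the highest mean log2 signal among those annotated to that gene alone. Of the 56 genes, 35 had such a probe set and 33 were tested, among 11200 genes tested in all. The filter kept probe sets whose mean log2 signal was at least the median of all probe sets; Rpl37 and Rps16 lay under it, and 21 genes had no probe set of their own, 20 of which shared theirs with pseudogenes or other genes in the annotation.

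RNA came from gastrocnemius, a calf muscle, of mice given the antibody JA16, which binds myostatin, or saline, with 10 samples in each group. JA16 was injected into the peritoneum at 0.12 mg per g body weight on day 1 and 0.09 mg per g on day 3, and muscle was taken on day 5. The sources used here do not state strain, genotype, sex or age, and no label says that each sample came from its own mouse, so the spread between samples may be partly technical. The values are Affymetrix MAS5 intensities. Array medians were between 43.1 and 77.1 in saline and between 38.9 and 62.1 in JA16 samples.

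Each ribosome holds a single copy of most of its proteins, and their genes are expressed together in growing cells. Their transcripts typically begin with a cytosine followed by a run of pyrimidines, the terminal oligopyrimidine (TOP) motif, through which mTOR complex 1 adjusts how much of each transcript is translated. Myostatin signals through activin type II receptors and Smad factors and restrains muscle growth, and muscle protein synthesis depends on ribosome number as well as on the use of each ribosome. The arrays measured transcript amounts, not translation or ribosome number.

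The start-site sequences of the members described with full values are shown, except Rpl7, because the pyrimidine run is the feature these genes are best known to share. Promoter entries from RefSeq (GRCm38.p6) matched 45 of the 56 genes and 29 of the 33 tested. Each line gives 30 bases before and 20 bases from the annotated start, 5′ to 3′ on the gene's strand, with a run of at least 6 pyrimidines that begins with C in capitals where one lay within 20 bases of the start. Rpl10a and Rps19 have 2 and 3 listed starts, and the one with the run nearest to it is shown. The last 3 lines hold no such run.
Rpl12: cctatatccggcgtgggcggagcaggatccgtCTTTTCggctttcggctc
Rps27: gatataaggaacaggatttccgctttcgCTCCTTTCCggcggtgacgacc
Rps25: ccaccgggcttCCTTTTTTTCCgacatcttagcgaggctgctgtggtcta
Rps2: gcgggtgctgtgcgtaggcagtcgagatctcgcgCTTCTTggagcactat
Rps10: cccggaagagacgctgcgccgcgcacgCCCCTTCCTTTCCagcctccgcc
Rplp2: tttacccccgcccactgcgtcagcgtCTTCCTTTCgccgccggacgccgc
Rps6: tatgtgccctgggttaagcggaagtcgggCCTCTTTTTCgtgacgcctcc
Rps26: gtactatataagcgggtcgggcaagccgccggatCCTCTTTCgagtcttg
Rpl10a: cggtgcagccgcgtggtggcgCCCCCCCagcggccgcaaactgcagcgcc
Rpl11: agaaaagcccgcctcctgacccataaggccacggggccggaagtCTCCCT
Rps19: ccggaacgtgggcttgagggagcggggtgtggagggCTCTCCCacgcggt
Rpsa: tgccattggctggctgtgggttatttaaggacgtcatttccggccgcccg
Rplp0: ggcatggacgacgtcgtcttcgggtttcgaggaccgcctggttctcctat
Rps3: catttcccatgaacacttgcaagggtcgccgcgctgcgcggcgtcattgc

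In the same order the stretches lie at chr2:32961682-32961731 (plus strand), chr3:90213629-90213678 (minus), chr9:44407684-44407733 (plus), chr17:24720033-24720082 (plus), chr17:27635225-27635274 (minus), chr7:141447621-141447670 (plus), chr4:86857348-86857397 (minus), chr10:128626487-128626536 (minus), chr17:28328441-28328490 (plus), chr4:136053374-136053423 (minus), chr7:24884883-24884932 (plus), chr9:120127736-120127785 (plus), chr5:115559437-115559486 (plus) and chr7:99483690-99483739 (minus). The marked runs of Rps25 and Rpl10a begin 19 and 9 bases before the annotated start and end before it. The pyrimidines in lowercase directly before the Rps25 run continue it, reaching beyond the 20 bases searched. That of Rpl11 begins 14 bases after the start and reaches the last base searched. A run was found at any listed start in 31 of the 45 matched genes (68.9%), in 32.8% of all 27025 genes of the promoter table and in 26 of 69 mitochondrial ribosomal protein genes (37.7%). The letters CCGGAAG, the core bound by ETS factors, were searched on both strands of the 300 bases from 250 before the start. They were present in 18 of 45 members (40%) and in 26 of 69 mitochondrial ribosomal protein genes, against 9.93% of all genes. The letters GGGCGG, the GC box bound by Sp1, were present in 57.8% of members and 38.2% of all genes. AAGATGG, the core of the YY1 site, was in 11.1% and 7.28%, CACGTG, the E-box of Myc, in 11.1% and 8.09%, and TATAAA in 8.89% and 15.7%. Each was counted separately on both strands, and matches can share letters, since AAG ends CCGGAAG and begins AAGATGG.

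The upstream 250 bases of 2 members show these letters in place, in capitals. In Rps10 (chr17:27635245-27635494, minus strand) both GC boxes and the ETS core precede the pyrimidine run shown above, and in Rpsa (chr9:120127516-120127765, plus strand) an ETS core lies on the opposite strand.
Rps10: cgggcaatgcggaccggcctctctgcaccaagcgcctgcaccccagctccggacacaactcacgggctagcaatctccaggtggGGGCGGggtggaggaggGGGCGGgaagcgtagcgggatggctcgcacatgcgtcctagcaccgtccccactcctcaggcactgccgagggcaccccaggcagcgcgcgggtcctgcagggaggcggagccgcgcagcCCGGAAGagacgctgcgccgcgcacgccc
Rpsa: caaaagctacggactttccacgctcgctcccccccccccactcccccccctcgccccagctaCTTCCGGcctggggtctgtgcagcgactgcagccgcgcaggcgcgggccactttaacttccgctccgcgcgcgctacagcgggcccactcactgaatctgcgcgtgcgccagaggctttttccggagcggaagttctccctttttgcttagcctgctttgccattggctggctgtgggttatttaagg

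The comparison of JA16 with saline samples asks which muscle transcripts differ on day 5 of blocking myostatin. The 33 tested ribosomal protein genes lay close together, all slightly higher in JA16 as deposited (26 of 33 with quantile normalization), with a median log2 fold change of 0.086, which is 6.17% above saline. The middle of their range was narrow, with quartiles of 0.0704 and 0.098 and a span from 0.031 for Rpl19 to 0.52 for Rpl12. Among all 11200 genes tested, 45.8% were higher and the median was -0.016. Fold changes are on the log2 scale, with standard errors (SE) from limma. The groups overlapped for every member, as for all 11200 genes, of which 0% had groups of 10 that did not overlap. By limma with Benjamini-Hochberg adjustment over all genes, 0 of 33 members passed an adjusted p of 0.05, where 0.0357% of all genes did, and 1 member, Rpl12, had an unadjusted p under 0.05, being higher in JA16, where 2.65% of all genes did in either direction and 1.14% did as higher.

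Replicates are numbered 1 to 10 in both groups, and samples with the same number deviated together, so they were also compared as pairs by making the number a block in the model. With the block 0 of 33 members passed (0.277% of all genes), the lowest adjusted p was 0.159, and 15 members (45.5%) had an unadjusted p under 0.05, all of them higher, against 7.49% of all genes in that direction and 16.2% in either. The 15 were Rpl7, Rpl10a, Rpl11, Rpl12, Rpl22, Rpl35, Rplp0, Rplp2, Rps2, Rps3, Rps4x, Rps9, Rps10, Rps25 and Rpsa. Their number was 8 without pair 10, 9 without pair 6, 10 without pair 7, 9 with centred array medians, 3 with quantile normalization and 10 with the beta-actin control ratio as a covariate. The block lowered the SE of all 33 members, from a median of 0.086 to 0.041. In the pairs themselves, 21 members (63.6%) were higher in at least 8 of the 10 pairs, against 10.5% of all genes.

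**Figure D1:**
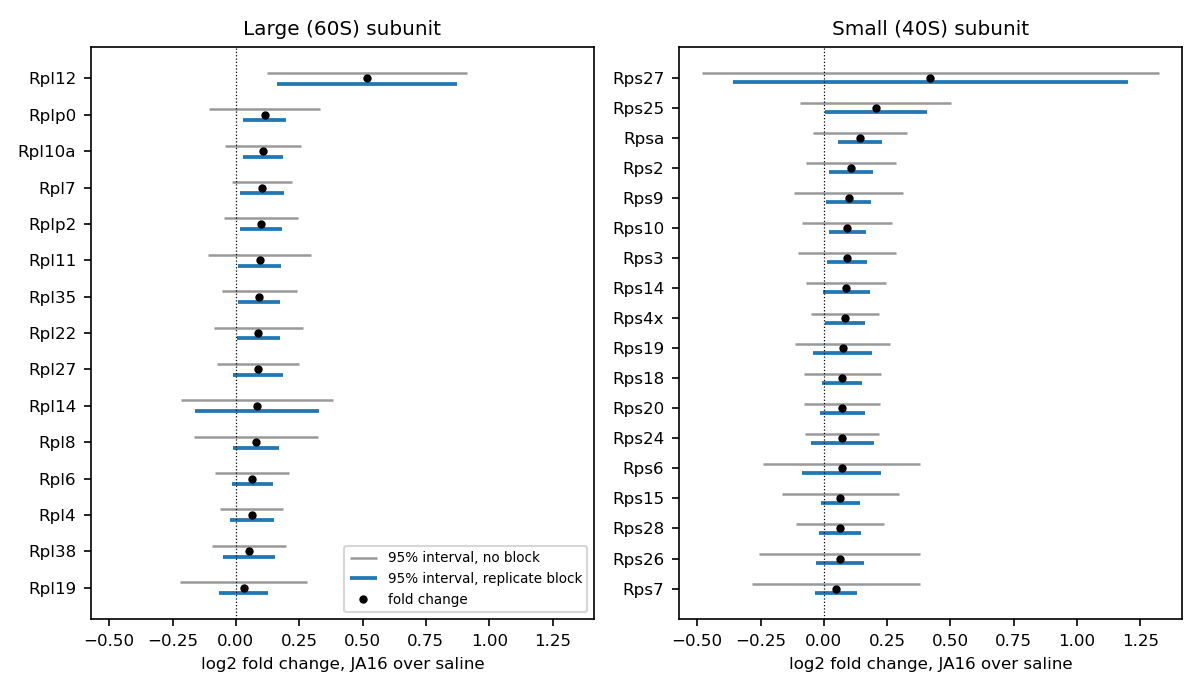
Log2 fold change of JA16 over saline (horizontal axis) for the 15 large-subunit and 18 small-subunit genes tested, each with its 95% confidence interval from limma without (grey) and with (blue) the replicate block. As deposited all points lie above 0 (26 of 33 do after quantile normalization), between 0.031 for Rpl19 and 0.52 for Rpl12, and without the block only the interval of Rpl12 excludes 0.

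The proteins of the ribosomal stalk, a flexible arm of the large subunit that recruits the elongation factors, included the largest difference. It came from Rpl12, whose signal was low beside that of most members, which limits this value. Rpl12, which forms the base of the stalk, ran from 110.5 through a median of 155 to 311 in saline samples and from 153 through 227 to 332 in JA16 samples. Saline replicate 7 was the highest saline sample, and only JA16 replicate 1 exceeded it, so the groups overlapped. Its log2 fold change was 0.52 (SE 0.19, limma adjusted p = 0.9998, adjusted p = 0.191 with the block), and it was higher in JA16 in 9 of 10 pairs. With 1 sample left out, the fold change ran from 0.46 without JA16 replicate 1 to 0.63 without saline replicate 7.

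Rplp0, the scaffold that ties the stalk to the ribosome, ran from 10959 through 13400 to 19413 in saline and from 11126 through 14944 to 18791 in JA16. The groups covered nearly the same range, and replicate 5 was lowest in both. The log2 fold change was 0.11 (SE 0.11, blocked SE 0.0397, blocked adjusted p = 0.205 by limma), with JA16 higher in 9 of 10 pairs, and was 0.076 without saline replicate 5. Rplp2, an acidic tip protein, ran from 13735 through 16709 to 18542 in saline and from 14919 through 17232 to 20532 in JA16. It was at 0.098 (SE 0.071, blocked SE 0.038), and 2 JA16 samples lay above the highest saline sample. Rplp1, the partner of Rplp2, had no probe set of its own.

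Other large-subunit proteins with named roles differed by about the list median. Rpl10a, part of the arm through which spent transfer RNA leaves, ran from 14846 through 16990 to 21601 in saline and from 15992 through 18958 to 21530 in JA16 samples, so that no JA16 sample exceeded the highest saline sample. Its log2 fold change was 0.11 (SE 0.072, blocked SE 0.036, blocked adjusted p = 0.200 by limma). Rpl7, a component of the large subunit, had a tight spread. It ran from 10161 through 11676 to 13162 in saline and from 11489 through 12166 to 13320 in JA16, a log2 fold change of 0.102 (SE 0.058, blocked SE 0.041), and 1 JA16 sample lay above the saline range. Rpl11, which with Rpl5 and the small 5S RNA forms a particle that can also inhibit Mdm2, the ubiquitin ligase of p53, ran from 9379 through 10442 to 15287 in saline and from 10036 through 11901 to 15036 in JA16. It was at 0.093 (SE 0.098, blocked SE 0.0402), at 0.057 without JA16 replicate 9 and at 0.14 without saline replicate 9. Rpl5 itself had no probe set of its own.

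The proteins in or near the exit tunnel of the growing chain were Rpl4 at 0.063 (SE 0.0597), Rpl19 at 0.031 (SE 0.12) and Rpl35 at 0.092 (SE 0.071). Rpl4 and Rpl19 had the sign turned under quantile normalization, at -0.0066 and -0.028. Rpl6 was at 0.064, Rpl8 at 0.0798, Rpl14 at 0.084, Rpl22 at 0.089, Rpl27 at 0.086 and Rpl38 at 0.051.

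In the small subunit, Rpsa, which is also known as a precursor of a laminin receptor, had the smallest blocked p of the members. It ran from 11083 through 13810 to 16863 in saline and from 11089 through 15022 to 18094 in JA16, and 3 JA16 samples lay above every saline sample. The log2 fold change was 0.14 (SE 0.0902, limma adjusted p = 0.9998, blocked SE 0.041, blocked adjusted p = 0.159), or 10.4% above saline, with JA16 higher in 9 of 10 pairs. Rps10 was the only member higher in JA16 in all 10 pairs. Rps10, a protein of the small-subunit head mutated in some cases of Diamond-Blackfan anaemia, ran from 9982 through 12588 to 14520 in saline and from 10277 through 13557 to 15785 in JA16. Its log2 fold change was 0.092 (SE 0.086, blocked SE 0.034, blocked adjusted p = 0.225 by limma), and 0.059 without saline replicate 7.

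Rps2 and Rps3 lie where messenger RNA enters the small subunit. Rps2 ran from 10299 through 13985 to 15206 in saline and from 12133 through 14476 to 18606 in JA16 (log2 fold change 0.11, SE 0.086, blocked SE 0.0403). Rps3 ran from 12294 through 14541 to 19923 in saline and from 12032 through 15851 to 19928 in JA16 (0.091, SE 0.094, blocked SE 0.037). Without saline replicate 7 the value of Rps2 was 0.064, and that of Rps3 was 0.055 without JA16 replicate 9 and 0.14 without saline replicate 9. Rps2 was shifted at both ends of its range, whereas the range of Rps3 was nearly the same in both groups. When all probe sets annotated to Rps3 alone were averaged, the value was -0.011. The further probe sets were at 0.016, with a mean intensity of 2762, and at -0.14, with a mean of 1.83 that lay under the filter. Rps9, which also faces the entry site, was at 0.098 and higher in 9 of 10 pairs.

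Rps6, the small-subunit protein phosphorylated by the S6 kinases downstream of mTOR, did not differ beyond its spread. It ran from 1356 through 1734 to 2538 in saline and from 1210 through 1893 to 2864 in JA16, with JA16 higher in 6 of 10 pairs and a log2 fold change of 0.0704 (SE 0.15, blocked SE 0.073). It was 0.0048 without JA16 replicate 1 and 0.14 without JA16 replicate 7. Rps19, the gene most often mutated in Diamond-Blackfan anaemia, ran from 7009 through 8298 to 10855 in saline and from 7044 through 9213 to 10459 in JA16 (0.075, SE 0.091, blocked SE 0.054), and no JA16 sample lay above the saline range. Its value was 0.044 without saline replicate 5 and 0.11 without saline replicate 9. Over the 10 tested genes of 13 listed for that anaemia, the median was 0.081. Rps26, which touches messenger RNA at the exit channel, ran from 7270 through 12338 to 14277 in saline and from 8062 through 11984 to 17055 in JA16. Its median was lower in JA16 while its mean log2 was higher by 0.063 (SE 0.15, blocked SE 0.044), and it was at -0.0043 without saline replicate 10, 0.12 without JA16 replicate 10 and -0.0030 with quantile normalization.

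Rps25 and Rps27 were the other members above 0.15, and like Rpl12 both had low signals. Rps25, needed for initiation at some internal entry sites, ran from 498 through 685 to 836 in saline and from 602 through 735 to 1144 in JA16 (0.205, SE 0.14, blocked SE 0.094). It was higher in only 6 of 10 pairs. Rps27, a zinc-finger protein of the small subunit, ran from 30 through 89.5 to 343 in saline and from 34.7 through 143 to 289 in JA16, a span of several fold within each group. Its log2 fold change of 0.42 had an SE of 0.44, so the difference was smaller than the spread, and it was 0.23 without saline replicate 6 and 0.63 without JA16 replicate 5.

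The remaining small-subunit members were at 0.047 for Rps7, 0.064 for Rps28, 0.065 for Rps15, 0.072 for Rps20 and Rps24, 0.073 for Rps18, 0.084 for Rps4x and 0.089 for Rps14. The 30 members with a log2 fold change under 0.15 had upper 95% bounds of at most 0.38 without the block and 0.33 with it. The medians were 0.089 for the large and 0.079 for the small subunit. The 2 genes under the filter, Rpl37 and Rps16, had median intensities of 23.5 and 0.60 in saline and 19.4 and 0.65 in JA16.

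**Figure D2:**
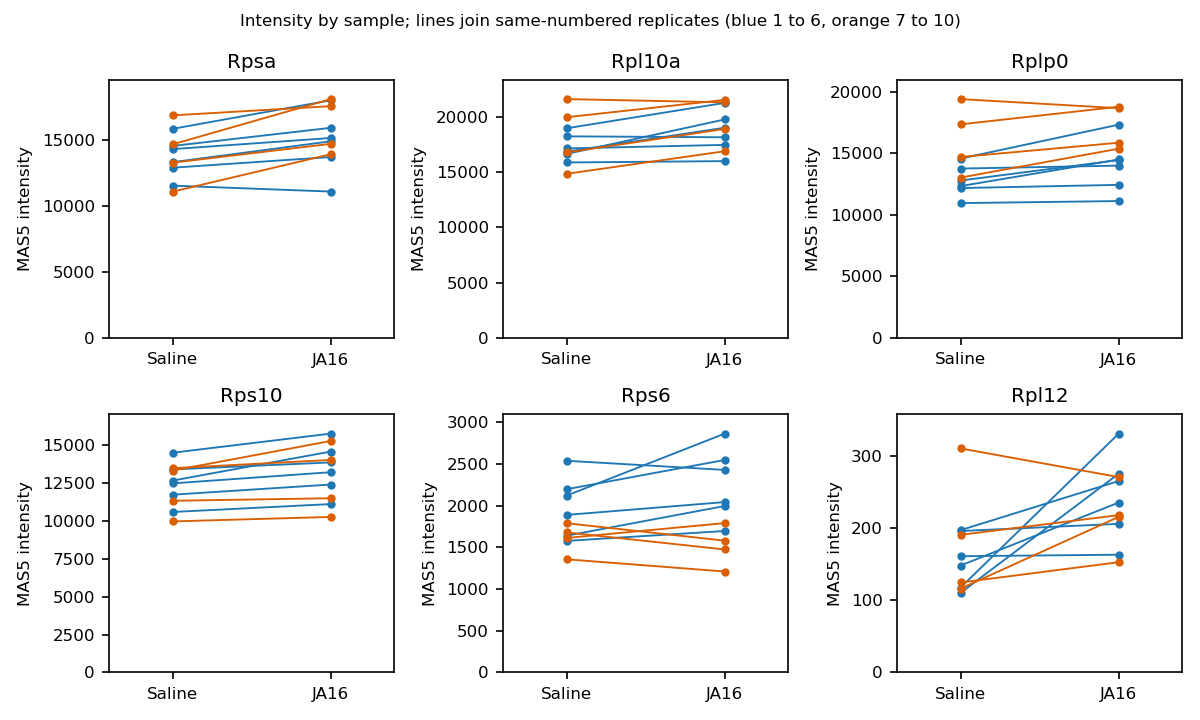
MAS5 intensity (vertical axis, from 0) of 6 members in each saline and JA16 sample, with lines joining samples that share a replicate number, blue for replicates 1 to 6 and orange for 7 to 10. Rps10 is higher in JA16 in all 10 pairs, Rpsa, Rplp0 and Rpl12 in 9, Rpl10a in 8 and Rps6 in 6, and the groups overlap in every panel.

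Other probe sets were read against this pattern. The 33 members had further probe sets annotated to a single member, of which 32 passed the filter. Of these 32, 28 were higher, the median of the 32 being 0.077. Probe sets of 3 members, Rpl22, Rps18 and Rps20, differed in sign. Another 76 probe sets past the filter listed a member together with pseudogenes or other genes, and 20 of the 21 members with no probe set of their own were represented only there. Of these 76, 65 were higher and 11 lower in JA16, with a median of 0.067, where 42.3% of all 22517 probe sets past the filter were higher, and 0 passed in either limma fit (15 had an unadjusted blocked p under 0.05, or 19.7%, near the 15.7% of all probe sets past the filter). They were examined after the values of the members were known and cannot be assigned to single genes. Ribosomal protein genes have many near-identical processed pseudogenes. Of the 33 tested probe sets, 25 end in _a, _s or _x. The endings _s and _x mark possible matches to other genes, whereas _a marks several transcripts of the same gene. With probe sets of all these endings left out, 16 members remained, 14 of them higher, with a median of 0.099.

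The shift of the list varied between pairs more than between subunits. The median over the 33 members of JA16 minus saline was 0.194 in pair 7, 0.165 in pair 2, 0.163 in pair 6, 0.129 in pair 10, 0.11 in pair 8 and 0.083 in pair 3. It was 0.0301 in pair 4, 0.0073 in pair 5, 0.0054 in pair 9 and -0.0089 in pair 1. Thus in 4 pairs the list was within 0.031 of 0, with 24, 17, 19 and 15 of 33 members higher in pairs 4, 5, 9 and 1, against 32 of 33 in pair 6 and 31 in pair 3. The JA16 array had the lower median intensity in 6 of 10 pairs, the largest differences being in pairs 8 and 7 (-0.32 and -0.31 on the log2 scale). Whether the array medians account for the differences between pairs was not tested.

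**Figure D3:**
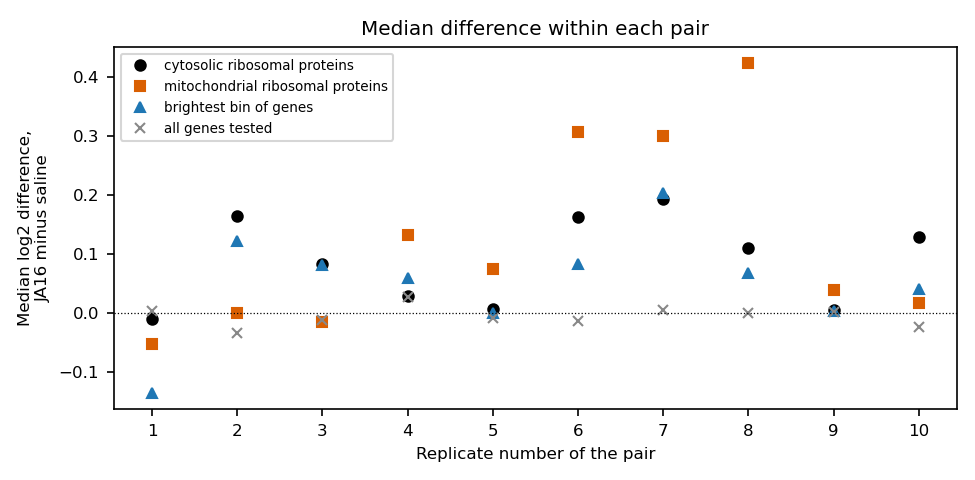
Median log2 difference, JA16 minus saline (vertical axis), within each of the 10 same-numbered pairs for 33 cytosolic and 76 mitochondrial ribosomal protein genes, the brightest bin of genes and all genes tested. The cytosolic list is above 0 in 9 pairs, from 0.0054 in pair 9 to 0.194 in pair 7, and is at -0.0089 in pair 1, while the median of all genes stays between -0.033 and 0.028.

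The members' probe sets were among the brightest on the array, and bright genes as a class were shifted in the same direction. When the 11200 genes were divided into 10 equal bins by mean log2 signal, 28 of the 33 members fell in the brightest bin of 1120 genes. There 71.0% of genes were higher, their median being 0.0498, and 214 genes (19.1%) were higher with an unadjusted blocked p under 0.05. In that bin 302 genes (27.0%) were higher in at least 8 of the 10 pairs, as were 20 of the 28 members. The 28 members had a median of 0.085. The dimmest bin was at -0.064 and only the brightest 2 bins had a median above 0. The 5 members outside the brightest bin, Rpl12, Rpl14, Rps6, Rps25 and Rps27, were all higher, with a median of 0.205 as deposited and 0.24 with quantile normalization. The members' median was above that of the brightest bin in 8 of 10 pairs. Quantile normalization, which gives every array the same distribution, set the median of the brightest bin to -0.0060 and that of the 33 members to 0.019. Under it 26 of 33 members were higher (51.2% of all genes), and Rpl4, Rpl19, Rpl38, Rps7, Rps15, Rps24 and Rps26 had values between -0.028 and -0.0011. Centring each array on its median left all 33 higher (61.3% of all genes), with a median of 0.156 where that of all genes was 0.054. The direction for those 7 members and most of the size of the list's shift therefore depended on how the arrays were scaled.

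**Figure D4:**
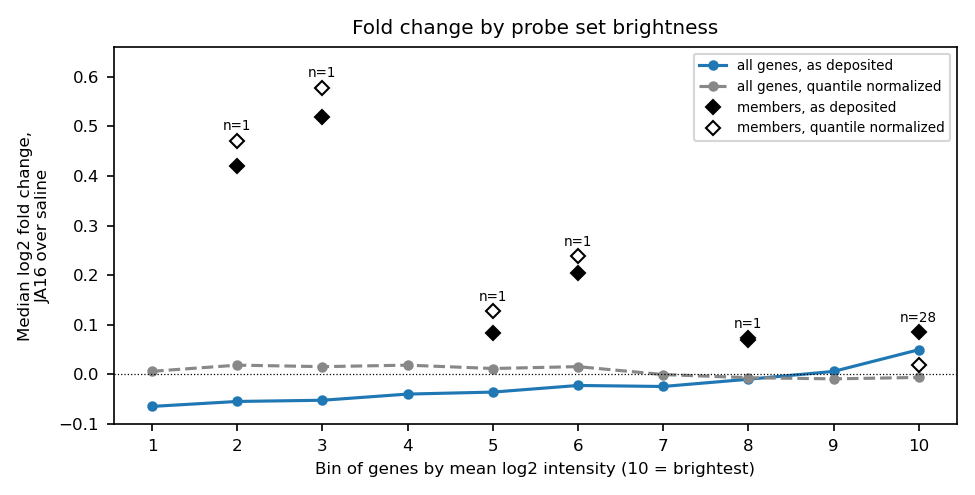
Median log2 fold change of JA16 over saline (vertical axis) in each of 10 bins of genes by mean log2 intensity (horizontal axis), for all genes as deposited (blue) and after quantile normalization (grey), with the members of that bin as diamonds (filled as deposited, open after quantile normalization) and their number beside them. All genes run from -0.064 in the dimmest to 0.0498 in the brightest bin as deposited, the 28 members of the brightest bin stand at 0.085, and after quantile normalization at 0.019.

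The beta-actin control, which has probe sets at both ends of its transcript, divided the samples into 2 array sets. The log2 of 3′ over 5′ signal lay between 1.33 and 1.84 in the first set (replicates 1 to 6) and between 0.48 and 0.64 in the second (replicates 7 to 10). For several members the array sets differed far more than the treatments. Rps7, which lies near the exit channel, ran from 14114 to 17855 in the first set and from 8589 to 10007 in the second. Rps26 ran from 11369 to 17055 and from 7270 to 9792, and for these genes and Rps15 the sets did not overlap. In the other direction Rps9 averaged 9869 ± 709 (SD, n = 12) in the first and 12963 ± 1445 (SD, n = 8) in the second, and Rpl19, Rpl11, Rplp0 and Rps27 were also higher in the latter by over 0.3 on the log2 scale. In all, 12 of 33 members differed by more than 0.3 between the sets, and 18 of 33 were lower and 15 higher in the second set. The median size of the set difference was smaller for the members, at 0.23, than for all genes tested, at 0.37. The within-group standard deviation of the members had a median of 0.19 on the log2 scale, and that of the pair differences 0.11.

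Within each array set, with the block, the treatment difference had the same sign for 32 of 33 members, where 29.6% of all genes were higher in both sets. The median was 0.077 in the first set and 0.102 in the second. The exception was Rps6, at 0.18 (SE 0.083) in the first set and -0.095 (SE 0.13) in the second. Rps19 was at 0.12 (SE 0.072) and 0.00036 (SE 0.085), and Rpsa at 0.098 (SE 0.051) and 0.21 (SE 0.072). The difference between the sets was not tested.

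Paralogs of ribosomal protein genes gave similar or larger values, with 4 of 5 tested higher and 0 past the adjusted threshold in either limma fit. An unadjusted p under 0.05 was found for 0 without the block and 4 with it (2.65% and 16.2% of all genes). Rpl22l1, a paralog of Rpl22, ran from 6142 through 8250 to 9240 in saline and from 5702 through 9857 to 11741 in JA16, a log2 fold change of 0.23 (SE 0.11, blocked SE 0.065, blocked adjusted p = 0.151 by limma), with JA16 higher in 9 of 10 pairs. Rps27l, a paralog of Rps27 that responds to p53, was at 0.15 (SE 0.087, blocked SE 0.045). Rpl3l, which replaces Rpl3 in ribosomes of adult striated muscle, ran from 7188 through 9380 to 12474 in saline and from 7801 through 10037 to 13498 in JA16, with a log2 fold change of 0.12 (SE 0.11, blocked SE 0.054). Rpl3 had no probe set of its own. Rpl7l1 was at 0.17 and Rps4l, a dim probe set, at -0.041. With quantile normalization these 5 were at 0.18 for Rpl22l1, 0.072 for Rps27l, 0.059 for Rpl3l, 0.19 for Rpl7l1 and 0.0069 for Rps4l.

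Of 9 further cytosolic ribosomal protein genes outside the list, 8 were higher, with a median of 0.072. Rpl37a was at 0.078 (SE 0.093, blocked SE 0.033) and Rps29 at 0.089 (SE 0.088, blocked SE 0.041), while Rpl39, a dim probe set, was at -0.024 (0.051 with quantile normalization, which left 6 of 9 higher and a median of 0.0091). None of the 9 passed in either limma fit, and 0 and 2 had an unadjusted p under 0.05 (2.65% and 16.2% of all genes).

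Mitochondrial ribosomal proteins, which are encoded in the nucleus and translate the mitochondrial genome, were shifted by a similar amount. Of 76 tested genes 74 were higher, at a median of 0.12, or 8.33% above saline, and Mrpl1 and Mrps9 were the exceptions. The median was 0.073 without JA16 replicate 8. By limma 0 passed in either fit, and 0 and 22 had an unadjusted p under 0.05 without and with the block, all 22 higher. Among all genes 1.14% and 7.49% had such a p and were higher. Mrps28 ran from 3106 through 4001 to 5660 in saline and from 3744 through 4826 to 7027 in JA16 (log2 fold change 0.27, SE 0.14, blocked SE 0.062, blocked adjusted p = 0.0975), and Mrps27 was at 0.34 (SE 0.19, blocked SE 0.088). Both were higher in 9 of 10 pairs. Unlike the cytosolic list, this one changed little with quantile normalization, which left 69 of 76 higher and a median of 0.099. Only 25 of its 76 genes lay in the brightest bin. Its median was 0.0696 in the first array set and 0.18 in the second, and it was above that of the cytosolic genes in 6 of 10 pairs. No test compared the lists.

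Of 15 other genes with a TOP motif 7 were higher, with a median of -0.0027. With quantile normalization 4 were higher and the median was -0.053, and with centred array medians 10 were higher and it was 0.067. No test compared this list with the ribosomal protein genes. Pabpc1, the cytoplasmic poly(A)-binding protein, was at 0.27 (SE 0.12, blocked SE 0.071) and higher in 8 of 10 pairs. Eif4b, an initiation factor that assists unwinding of messenger RNA, ran from 5754 through 6978 to 9715 in saline and from 5005 through 6187 to 7524 in JA16. It was at -0.197 (SE 0.094, blocked SE 0.057) and lower in JA16 in 9 of 10 pairs. By limma 0 of the 15 passed in either fit, with 2 and 4 genes at an unadjusted p under 0.05 (2.65% and 16.2% of all genes).

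Among 19 factors that carry ribosomal proteins or assemble the subunits, 14 were higher, with a median of 0.072. Znhit3, which helps to assemble nucleolar RNA particles, was at 0.29 (SE 0.17, blocked SE 0.091) and higher in 9 of 10 pairs, and Bop1, needed to process the RNA of the large subunit, at 0.27 (SE 0.205, blocked SE 0.094). Of 18 genes that control ribosomal protein expression, 7 were higher, with a median of -0.033, but with centred array medians 13 were higher and the median was 0.036. Sp1, the factor of the GC box, was at -0.34 (SE 0.24, blocked SE 0.13) and Gabpa, an ETS factor, at -0.28 (SE 0.36, blocked SE 0.15), each lower in JA16 in 8 of 10 pairs. By limma 0 genes of either list passed in either fit, with an unadjusted p under 0.05 for 0 of both without the block and for 4 and 1 with it. Among all genes the shares were 2.65% without the block and 16.2% with it.

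**Figure D5:**
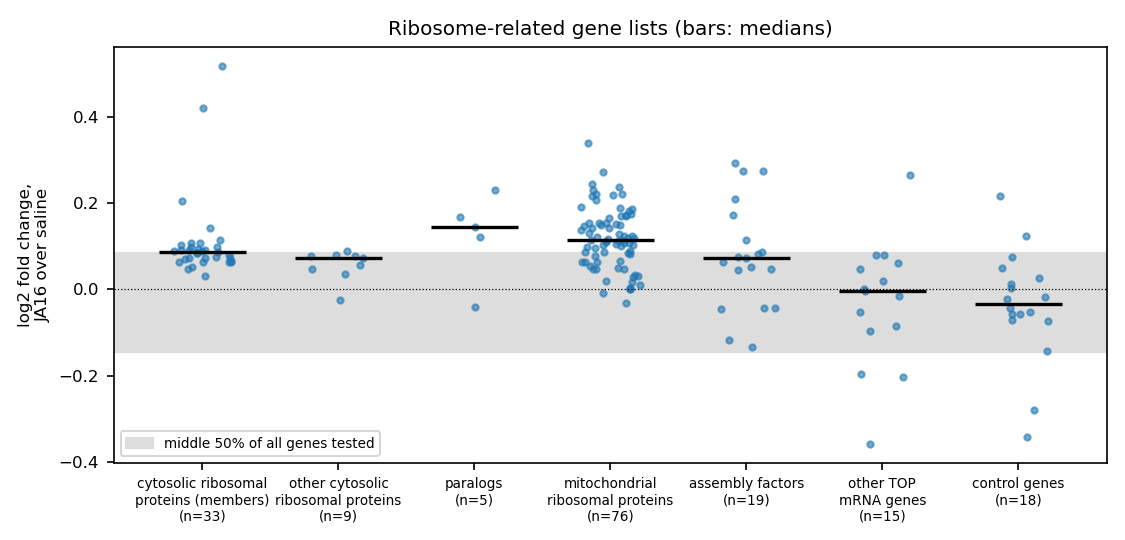
Log2 fold change of JA16 over saline (vertical axis) for each tested gene of 7 ribosome-related lists, with the median of each as a bar and the middle 50% of all 11200 genes shaded. Cytosolic and mitochondrial ribosomal protein genes have medians of 0.086 and 0.12, and the other TOP genes and the control genes medians of -0.0027 and -0.033 (0.067 and 0.036 with centred array medians).

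The tissue label was checked with 14 muscle fibre markers, all of which passed the filter, and their summed intensity ran from 242797 to 310513 in saline and from 251435 to 362646 in JA16. Of these 14, 11 were higher in JA16, and 3 with quantile normalization. Markers of other cell types were also present, and in whole muscle a change in the number of cells of a type and in RNA per cell cannot be told apart. None of these lists had a gene past the adjusted threshold in limma without or with the block. Among all genes, 2.65% without the block and 16.2% with it had an unadjusted p under 0.05. With an unadjusted p under 0.05 there were 0 and 3 of 11 endothelial and mural genes, 0 and 2 of 10 fibroblast and tendon genes and 4 and 5 of 6 nerve and Schwann cell genes, all lower in JA16, and 0 in both fits for 13 macrophage and leukocyte, 6 adipocyte and 2 blood cell genes. The medians were -0.19 for endothelial and mural, -0.204 for fibroblast and tendon, -0.599 for nerve and Schwann cell, -0.12 for macrophage and leukocyte and -0.32 for adipocyte genes. The macrophage and leukocyte list stood at 0.14 in the first array set, with 12 of 13 genes higher, and at -0.46 in the second, with 1 of 13 higher. The adipocyte list stood at -0.076 and -0.57 and the fibroblast and tendon list at -0.11 and -0.36. The summed nerve and Schwann cell signal, from 8 of 11 listed genes, ran from 9237 to 18819 in saline and from 6551 to 18285 in JA16, and that of 11 endothelial and mural genes from 13750 to 17025 and from 12064 to 16009. The sums of 10 fibroblast and tendon genes ran from 37302 to 67277 and from 25743 to 66524, those of 15 macrophage and leukocyte genes from 13868 to 51539 and from 13350 to 59201, and those of 7 adipocyte genes from 26254 to 32725 and from 23453 to 45892. Of 9 blood cell genes 5 had a probe set, and they summed to between 1670 and 3718 in saline and between 966 and 3212 in JA16. The groups overlapped in each sum. The part of these cells in the ribosomal protein values was not tested.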

How the data were processed

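The deposited table holds 45101 probe sets and 20 arrays as linear intensity values, which the authors made with MAS5, per the submitters' processing notes. RNA was amplified and labelled with NuGEN kits, per the labels' protocols. The sources used here name no version of MAS5, scaling or detection call. The number of arrays limits the precision. Values at or below 0 (5 in all) were set to 0.1 and log2 was taken. Probe sets were kept where the mean log2 over 20 samples was at least the median of all probe sets (5.65). In the annotation 34945 probe sets name 1 gene, 932 name several, 9160 name none and 64 are controls. The probe set with the highest mean stood for each gene.

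The test was limma's moderated one (version 3.58.1, R 4.3.3, lmFit and eBayes with an intensity trend), with both directions counted, with Benjamini-Hochberg adjustment over 11200 genes and a threshold of 0.05. The fit without the replicate block was primary. Same-numbered samples correlated in their deviations from group means at 0.377 to 0.786 (10 of 10 pairs above 0.1, median -0.11 between other samples). The pairing rests on these correlations and on the shared numbers in the labels. Same-numbered samples also share an array set, while samples of different number often do not. The correlations therefore cannot tell matching of single replicates apart from the array sets. The fits were also run on simulated data, with fold changes larger than the members' median. Those data therefore cannot show whether shifts of the members' size would be found.

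Members named with full values were the 8 with the largest fold change, the 8 with the smallest blocked p and 10 chosen by role. Of other lists, the 2 genes with the smallest blocked p and the paralogs Rpl3l, Rpl22l1 and Rps27l were named; a few others were named after their values were seen. The members and lists were chosen with earlier results of these data known. No test of a whole list was made. Alternatives were the block, scaling, filter, probe set, pseudocount, trend, array set and leaving out samples. Python 3.11.15, numpy 2.4.6, pandas 2.3.3 and matplotlib 3.10.9 were used.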

Additional observations from a re-analysis of the deposited data

Results flagged for a closer look

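In 66 groups of 10 values (33 members, saline and JA16), the most extreme sample was set against its nearest neighbour by Dixon's ratio of gap to range. Chance flags about 1 in 20 such groups. A single value passed, that of Rpl22 in saline replicate 9, at 17435 against 14429 for the next sample (ratio 0.475, above the 95% critical value for 10 samples).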

How the results depend on the processing

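Under every alternative run, 0 members passed an adjusted p of 0.05 in limma, and the list median was between 0.019 and 0.156. With 1 sample left out, the median ran from 0.062 (without JA16 replicate 2) to 0.11 (without saline replicate 9) and 31 to 33 members were higher. The number with an unadjusted p under 0.05 was 1 as reported and 1 to 2 with 1 sample left out. It was 15 with the replicate block, 8 to 20 with the block and 1 pair left out (20, 11, 11, 13, 12, 9, 10, 11, 15 and 8 without pairs 1 to 10 in turn), 9 with centred medians and the block, 3 with quantile normalization and the block, 10 with the control ratio and the block, 2 in either array set with the block, 2 with array set as a block and 2 with all probe sets averaged. Without probe sets ending in _a, _s or _x 14 of 16 members were higher. The filter at the 75th percentile left 31 members and 0 such values. Quantile normalization turned the sign of 7 members (Rpl4, Rpl19, Rpl38, Rps7, Rps15, Rps24 and Rps26). Among the members described with full values, signs turned for Rps26 with quantile normalization, with or without the block (-0.0030), and in 1 of 20 fits without 1 sample (-0.0043 to 0.12), for Rps3 with averaged probe sets (-0.011) and for Rps6 in replicates 7 to 10 (-0.095). The cause was not tested. The replicate block changed no call. Signal over background limits Rpl12, Rps27, Rpl37 and Rps16.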
